A study of Mus musculus with 12 samples.

Results

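The expression of 10 genes of the Notch pathway was examined in the tibia shaft: the receptors *Notch1*, *Notch2* and *Notch3*, the ligands *Jag1*, *Dll1* and *Dll4*, and the target genes *Hes1*, *Hey1*, *Heyl* and *Nrarp*. They were taken by gene symbol from the 47069 genes of the count table, and all 10 were found. RNA came from the tibia diaphysis of 12 male mice aged 8 weeks, with 4 mice in each of 3 groups, after the marrow had been flushed out. Jrt;Sost-het mice carried a dominant splice mutation of the collagen gene *Col1a1* (*Col1a1* Jrt/+), a model of severe osteogenesis imperfecta, together with 1 inactive copy of *Sost*, the gene for the Wnt inhibitor sclerostin. Jrt;Sost-ko mice carried the same *Col1a1* mutation and no active copy of *Sost* (*Col1a1* Jrt/+; *Sost* -/-). Both groups were bred in 1 colony whose *Col1a1* Jrt and *Sost* deletion lie on the same chromosome and were joined by a crossover in a founder mouse. WT mice had neither mutation and came from a parallel colony of mixed FVB/C57BL6 background, so that colony and genotype cannot be told apart in comparisons with WT. The sample labels give the *Col1a1* genotype of the Jrt;Sost-het mice, and their *Sost* genotype is that of the study's methods. The question of the study was what the loss of *Sost* does in mice with the *Col1a1* mutation.

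Notch receptors are cut when a ligand on a neighbouring cell binds them. Their intracellular part then enters the nucleus, joins the DNA-binding protein RBPJ and turns on genes such as *Hes1*, *Hey1*, *Heyl* and *Nrarp*. In bone, Notch signalling is known to act in osteoblasts, osteocytes and osteoclasts, and in the vessel wall it is known to act between endothelial cells and the mural cells around them.

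Between 24366061 and 44418863 reads per mouse were counted on genes, with group medians of 26164560 in Jrt;Sost-het, 32340327.5 in Jrt;Sost-ko and 38463711.5 in WT mice. *Sost* itself was at 26.8 to 70.4 CPM (counts scaled to a library of 1000000 reads) in Jrt;Sost-het mice, at 28.5 to 72.3 CPM in WT mice and at 0.326 to 1.28 CPM in Jrt;Sost-ko mice. The bone lineage was present in every mouse, with summed CPM of 11 osteoblast lineage markers between 1500 and 3407. The libraries differed in other tissues: 16 skeletal muscle markers summed to 35.8 CPM in Jrt;Sost-ko mouse 4 and 248 CPM in WT mouse 2, and to 30410 CPM in Jrt;Sost-het mouse 4 and 32228 CPM in WT mouse 4. Epidermal markers summed to 118 CPM in WT mouse 3 and 561 CPM in WT mouse 4, and to 2.65 CPM or less in the other mice. Mouse numbers follow the order of the labels within a group and pair no mice.

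RBPJ is known to bind in the promoters of Notch targets. The RefSeq promoter table for GRCm38.p6 matched 7 of the 10 genes, with 8 promoters (*Dll1* has 2). *Hes1*, *Hey1* and *Heyl* had no entry, so that *Nrarp* was the only one of the 4 targets searched. The 250 bases before each start were searched on both strands for the core of the RBPJ site (TGGGAA, or TTCCCA on the other strand) and for an E-box of the kind bound by Hey and Hes-related repressors (CACGTG, the same on both strands). The letters of the RBPJ core were in 0 of the 8 promoters, against 7094 of all 32851 promoters in the table (21.6%). The E-box was in 1 of the 8, that of *Nrarp*, 108 bases before the start, against 1978 of 32851 (6.02%). Among the other target genes of the pathway, *Hes5*, *Hes7* and *Hey2* held the RBPJ core and *Dtx1* did not. The promoters of *Nrarp* and *Notch3* are shown because they belong to a target and a receptor of the 10 and lie wholly outside annotated exons, and those of *Hes5* and *Hey2* because they carry the RBPJ core, at -226 and -207 from the start. Of these only the longest stretch free of annotated exons is printed, 97 bases for *Hes5* and 232 for *Hey2*, and *Hes5* holds another RBPJ core at -82, outside that stretch. Each is written 5′ to 3′ on the strand of its gene in GRCm38.p6, and capitals mark the motif.
Nrarp, chr2:25180508-25180757, plus strand: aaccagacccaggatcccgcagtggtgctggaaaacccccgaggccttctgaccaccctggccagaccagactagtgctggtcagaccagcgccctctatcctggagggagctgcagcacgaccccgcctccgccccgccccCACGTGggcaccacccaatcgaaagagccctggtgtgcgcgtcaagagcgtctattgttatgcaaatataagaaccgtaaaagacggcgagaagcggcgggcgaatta
Notch3, chr17:32166891-32167140, minus strand: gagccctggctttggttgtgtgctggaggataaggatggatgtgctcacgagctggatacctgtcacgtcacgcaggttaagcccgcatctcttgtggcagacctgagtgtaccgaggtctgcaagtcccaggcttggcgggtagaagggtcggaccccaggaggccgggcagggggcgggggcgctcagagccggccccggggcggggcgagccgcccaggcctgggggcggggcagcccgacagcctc
Hes5, chr4:154960673-154960769, plus strand: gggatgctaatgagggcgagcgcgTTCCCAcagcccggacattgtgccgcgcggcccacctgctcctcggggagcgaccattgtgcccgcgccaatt
Hey2, chr10:30842802-30843033, minus strand: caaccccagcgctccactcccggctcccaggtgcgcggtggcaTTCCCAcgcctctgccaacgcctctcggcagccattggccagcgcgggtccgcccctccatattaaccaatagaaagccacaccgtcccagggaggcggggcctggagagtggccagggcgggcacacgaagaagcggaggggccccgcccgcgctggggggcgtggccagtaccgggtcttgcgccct
A match in these windows is a description of letters, and none of the samples measured binding there.

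The 3 receptors had more CPM than any other of the 10 genes, and per length of transcript *Notch2* led the 10 genes. The level is given as CPM per kilobase of merged exons in GENCODE M21, as the mean ± SD of 12 mice. *Notch2* was at 15.7 ± 1.06, and its lowest mouse was above the highest mouse of every other gene. *Hes1* (6.88 ± 1.12), *Notch1* (6.82 ± 0.443) and *Notch3* (6.16 ± 0.973) followed and overlapped each other. *Hey1* was at 4.26 ± 1.07 and *Nrarp* at 4.09 ± 0.531. *Jag1* (2.87 ± 0.566) and *Heyl* (2.87 ± 0.723) lay at nearly the same level, and each was the higher of the pair in 6 of 12 mice. The delta-like ligands were lowest, *Dll4* at 1.999 ± 0.437 and *Dll1* at 1.11 ± 0.267. *Notch2* against *Hes1* was the only step between neighbours in this order without overlap of the ranges over 12 mice. Within single mice the order was tighter, since *Notch3* was above *Hey1*, *Nrarp* above *Jag1*, *Heyl* above *Dll4* and *Dll4* above *Dll1* in 12 of 12 mice.

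**Figure D1:**
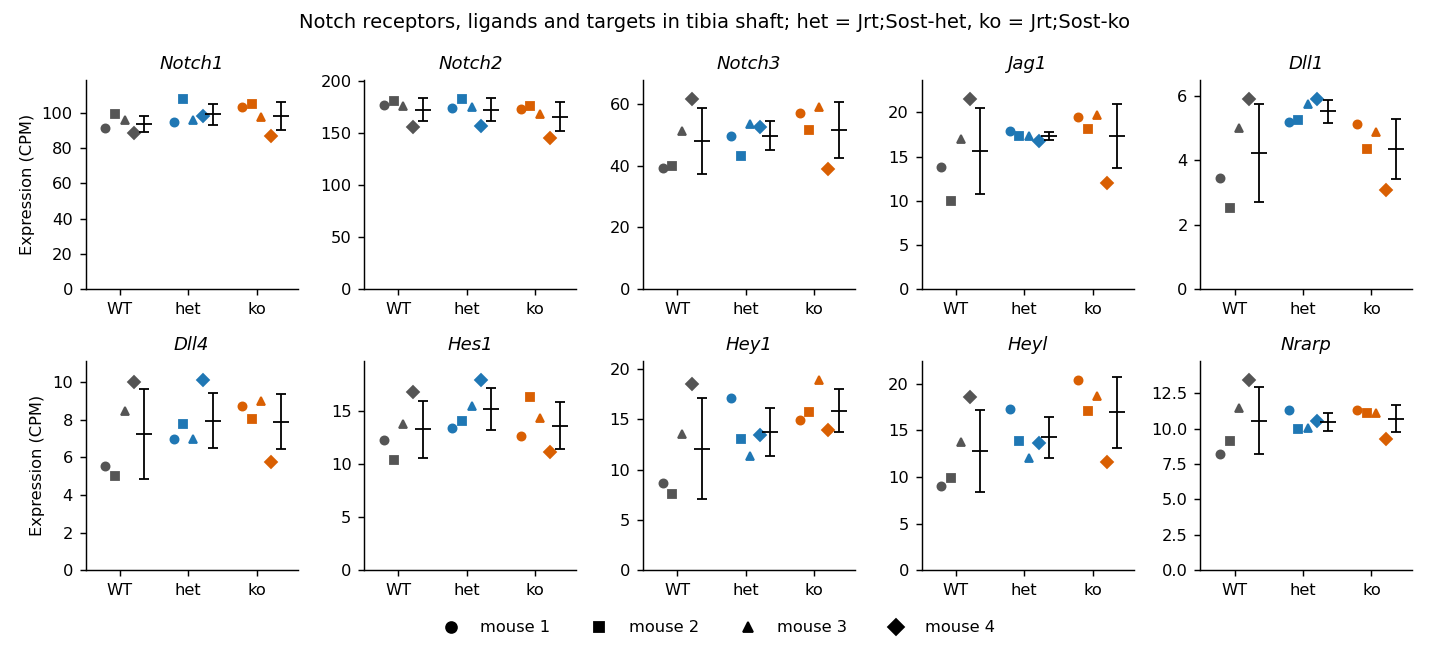
Expression of the 10 Notch genes in CPM (vertical axis, from 0) in WT, Jrt;Sost-het (het) and Jrt;Sost-ko (ko) mice. Each point is 1 mouse, its shape gives the mouse number within the group, and the bar at the right of each group is the mean ± SD of 4 mice. For the 8 genes other than *Notch1* and *Notch2*, WT mice 1 and 2 are low and WT mouse 4 is high, and Jrt;Sost-ko mouse 4 is low for 7 of them, all but *Hey1*.

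*Notch1* and *Notch2*, the broadly expressed receptors, were nearly level across the 12 mice. *Notch1* (ENSMUSG00000026923, chr2:26457903-26516663, minus strand, GRCm38) was at 91.5, 99.1, 95.9 and 88.8 CPM in WT mice 1 to 4, at 94.9, 108, 96.0 and 98.4 CPM in Jrt;Sost-het mice, and at 104, 105, 97.5 and 86.9 CPM in Jrt;Sost-ko mice. The groups overlapped, and the lowest mouse of all was Jrt;Sost-ko mouse 4. *Notch2* (ENSMUSG00000027878, chr3:98013527-98150361, plus strand) was at 176, 180.2, 175 and 156 CPM in WT mice, at 174, 183, 175 and 156 CPM in Jrt;Sost-het mice, and at 172, 176, 168 and 145 CPM in Jrt;Sost-ko mice. Mouse 4 of each group was the lowest of its group. The highest mouse was above the lowest by 1.24-fold for *Notch1* and 1.26-fold for *Notch2*.

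*Notch3* (ENSMUSG00000038146, chr17:32120820-32166852, minus strand), the receptor known from vascular smooth muscle and pericytes, varied more. It was at 39.2, 40.1, 51.3 and 61.8 CPM in WT mice, at 49.7, 43.0, 53.6 and 52.5 CPM in Jrt;Sost-het mice, and at 57.1, 51.5, 59.0 and 38.9 CPM in Jrt;Sost-ko mice. WT mice 1 and 2 and Jrt;Sost-ko mouse 4 were the 3 lowest, and the groups overlapped.

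The ligands showed the same mice at the bottom. *Jag1* (ENSMUSG00000027276, chr2:137081456-137116644, minus strand), a ligand of osteoblasts and of the vessel wall, was at 13.8, 10.01, 17.0 and 21.5 CPM in WT mice, at 17.9, 17.3, 17.3 and 16.8 CPM in Jrt;Sost-het mice, and at 19.4, 18.2, 19.7 and 11.97 CPM in Jrt;Sost-ko mice. The Jrt;Sost-het mice lay within 1.07-fold of each other and the WT mice within 2.15-fold. *Dll4* (ENSMUSG00000027314, chr2:119325784-119335962, plus strand), a ligand known from arterial and sprouting endothelium, was at 5.56, 4.99, 8.46 and 9.998 CPM in WT mice, at 6.99, 7.76, 6.96 and 10.1 CPM in Jrt;Sost-het mice, and at 8.75, 8.03, 9.01 and 5.77 CPM in Jrt;Sost-ko mice. Its highest value was 2.02 times its lowest. *Dll1* (ENSMUSG00000014773, chr17:15367354-15376872, minus strand), the ligand with the fewest reads (74 to 223 counts), was at 3.44, 2.53, 5.02 and 5.90 CPM in WT mice, at 5.18, 5.25, 5.76 and 5.92 CPM in Jrt;Sost-het mice, and at 5.14, 4.34, 4.89 and 3.07 CPM in Jrt;Sost-ko mice. All Jrt;Sost-ko mice were below all Jrt;Sost-het mice, by 0.0363 CPM at the nearest, while WT mice spanned both groups.

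Of the targets, the repressors *Hey1* and *Heyl* had the widest ranges. *Hey1* (ENSMUSG00000040289, chr3:8663359-8667256, minus strand) was at 8.73, 7.55, 13.6 and 18.5 CPM in WT mice, at 17.1, 13.1, 11.4 and 13.5 CPM in Jrt;Sost-het mice, and at 15.0, 15.7, 18.9 and 13.9 CPM in Jrt;Sost-ko mice. *Heyl* (ENSMUSG00000032744, chr4:123233556-123249875, plus strand) was at 9.08, 9.84, 13.7 and 18.6 CPM in WT mice, at 17.3, 13.9, 12.1 and 13.6 CPM in Jrt;Sost-het mice, and at 20.4, 17.0, 18.7 and 11.6 CPM in Jrt;Sost-ko mice. For both genes WT mice 1 and 2 were the lowest of all 12, and 3 of the 4 Jrt;Sost-het mice were below all 4 Jrt;Sost-ko mice for *Hey1* and below 3 of them for *Heyl*. *Hes1* (ENSMUSG00000022528, chr16:30064384-30067796, plus strand), the repressor that many pathways besides Notch also drive, was at 12.2, 10.4, 13.7 and 16.7 CPM in WT mice, at 13.4, 14.0, 15.4 and 17.9 CPM in Jrt;Sost-het mice, and at 12.6, 16.3, 14.3 and 11.2 CPM in Jrt;Sost-ko mice. *Nrarp* (ENSMUSG00000078202, chr2:25180758-25183339, plus strand), a feedback inhibitor of the receptor's intracellular part, was at 8.18, 9.12, 11.5 and 13.4 CPM in WT mice, at 11.3, 9.96, 10.1 and 10.6 CPM in Jrt;Sost-het mice, and at 11.3, 11.1, 11.1 and 9.26 CPM in Jrt;Sost-ko mice. Its 3 other Jrt;Sost-ko mice lay close together and mouse 4 stood below them.

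The spread between mice differed by group. The SD of log2 CPM was largest in WT mice for 8 of the 10 genes and smallest in Jrt;Sost-het mice for 8 of the 10. Over all 12 mice it was above 0.17, the median of 14677 genes with a mean of at least 1 CPM, for 8 of the 10, the exceptions being *Notch1* (0.09) and *Notch2* (0.10). Strand was not stated for the counting, so reads of a gene cannot be told apart from those of an antisense gene over the same exons. *Notch1*, *Notch3*, *Dll1*, *Dll4* and *Nrarp* have such antisense partners in GENCODE M21, *Notch2* shares exonic bases with a gene on its own strand, and *Jag1*, *Hes1*, *Hey1* and *Heyl* share none.

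Between the 2 groups with the *Col1a1* mutation, Jrt;Sost-ko and Jrt;Sost-het, the comparison that tests the loss of the remaining *Sost* copy, none of the 10 Notch genes passed the test. All 10 were tested, and 0 had an adjusted p under 0.05 by edgeR's quasi-likelihood test, by DESeq2 or by limma-voom. The same 3 tests gave 0 of 10 at an unadjusted p under 0.05. Over all 16739 genes tested, edgeR called 1 (0.00597%), which was *Sost*, and limma-voom 0%. DESeq2 called 0.114% of the 13156 genes to which it gave an adjusted p. An unadjusted p under 0.05 was found for 5.02% of genes by edgeR, 5.41% by DESeq2 (of 16719 genes) and 8.86% by limma-voom. Of the 10, 5 had a higher and 5 a lower value in Jrt;Sost-ko mice, where 50.4% of all genes were higher. Their median log2 fold change was -0.01 against 0.00 over all genes. In bulk RNA, fewer cells of a type and less RNA per cell cannot be told apart.

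*Dll1* was the only one of the 10 whose groups did not overlap in this comparison, which 3.2% of all genes tested also showed. It was at 4.36 ± 0.926 CPM in Jrt;Sost-ko mice and 5.53 ± 0.366 CPM in Jrt;Sost-het mice (mean ± SD, n = 4). The log2 fold change was -0.34 (SE 0.17), with an edgeR p of 0.0806 and an adjusted p of 0.901. Without Jrt;Sost-ko mouse 4 it was -0.21. The exact two-sided permutation test gave p = 0.0286, the smallest that 70 arrangements of 4 against 4 mice allow, and with 30 such tests over the genes and comparisons it has no adjusted value here. The 16 endothelial markers, all with counts in every mouse, summed to 756 to 848 CPM in Jrt;Sost-ko mice and 844 to 882 CPM in Jrt;Sost-het mice. Their mean log2 CPM was 5.063 to 5.244 in Jrt;Sost-ko and 5.247 to 5.423 in Jrt;Sost-het mice, without overlap. With this mean as a covariate the log2 fold change of *Dll1* was 0.03. Since the mean separates the same mice as the genotype, the 2 cannot be told apart here, and the part of the markers was not tested.

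The targets had values on both sides of 0. *Heyl* was at 16.9 ± 3.81 CPM in Jrt;Sost-ko and 14.2 ± 2.21 CPM in Jrt;Sost-het mice, a log2 fold change of 0.25 (SE 0.18, edgeR adjusted p = 0.901). *Hey1* was at 15.9 ± 2.15 against 13.8 ± 2.39 CPM, a log2 fold change of 0.21 (SE 0.14, edgeR adjusted p = 0.901). *Hes1* was at 13.6 ± 2.23 against 15.2 ± 1.996 CPM, a log2 fold change of -0.16 (SE 0.14, edgeR adjusted p = 0.904). None of these differences exceeded the spread between mice. Leaving out 1 mouse at a time gave 0.15 (without Jrt;Sost-ko mouse 1) to 0.39 (without Jrt;Sost-ko mouse 4) for *Heyl*, 0.11 (without Jrt;Sost-ko mouse 3) to 0.32 (without Jrt;Sost-het mouse 1) for *Hey1*, and -0.26 (without Jrt;Sost-ko mouse 2) to -0.06 (without Jrt;Sost-het mouse 4) for *Hes1*. The osteoblast lineage markers, with which *Hey1* and *Heyl* varied, summed to 2440 to 3407 CPM in Jrt;Sost-ko and 2186 to 3182 CPM in Jrt;Sost-het mice, and their part in the values was not tested. For *Notch1*, *Notch2*, *Notch3*, *Jag1*, *Dll4* and *Nrarp* the log2 fold changes lay between -0.06 and 0.05.

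**Figure D2:**
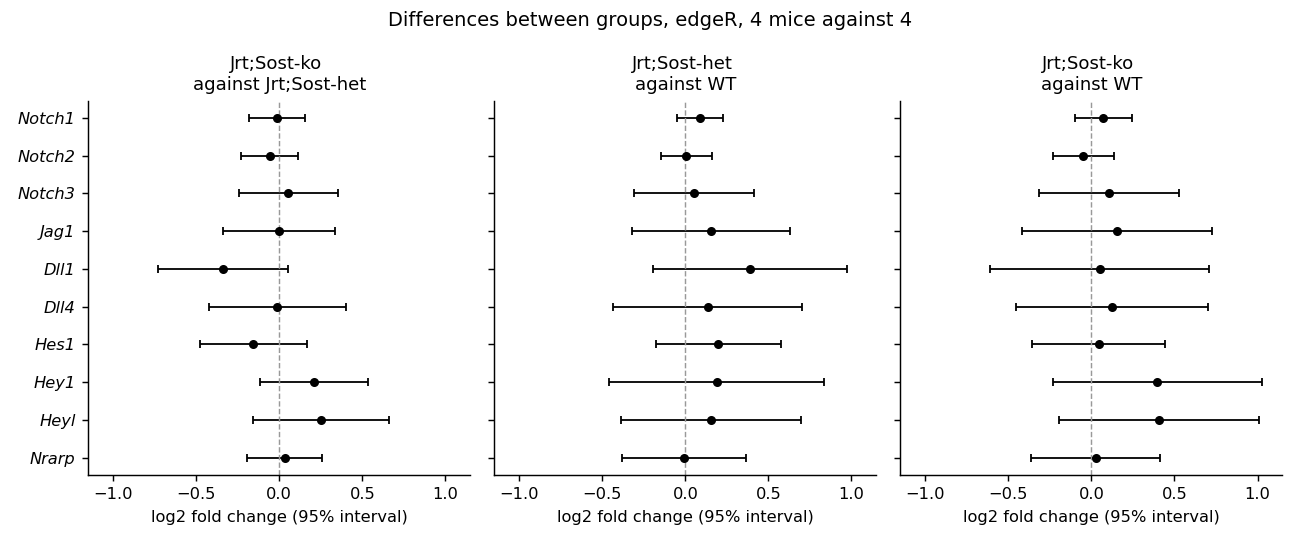
Log2 fold changes of the 10 Notch genes in each of the 3 comparisons (horizontal axis), as edgeR estimates with 95% intervals from 4 mice against 4. The dashed line marks 0, which all 30 intervals hold; the narrowest are those of *Notch1* and *Notch2*.

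Of the 10 genes, *Notch1* and *Notch2* had the narrowest intervals in each comparison. For Jrt;Sost-ko relative to Jrt;Sost-het mice the 95% interval of the fold was 0.881 to 1.11 for *Notch1* and 0.854 to 1.08 for *Notch2*. For *Heyl* it was 0.896 to 1.58 and for *Dll1* 0.602 to 1.04. All 10 intervals held a fold of 1 in each of the 3 comparisons, and over all 30 they reached from 0.602 to 2.03.

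Between Jrt;Sost-het and WT mice, which differ in *Col1a1*, in 1 copy of *Sost* and in colony, again no Notch gene passed the test. The count was 0 of 10 by edgeR, DESeq2 and limma-voom, adjusted or unadjusted, with 0% of 16775 genes called by edgeR and 2.14% at an unadjusted p under 0.05 by edgeR, 2.4% by DESeq2 and 4.59% by limma-voom. Of the 10 genes, 9 were higher in Jrt;Sost-het mice, where 51.3% of all genes tested were. The median log2 fold change was 0.14 against 0.00 over all genes. WT mice 1 and 2 were among the lowest mice for 8 of the 10 genes, which varied together. The 10 fold changes are therefore not independent of each other. The largest was that of *Dll1*, 5.53 ± 0.366 against 4.22 ± 1.52 CPM (log2 fold change 0.39, SE 0.25, edgeR adjusted p = 0.99998). *Hes1* was at 15.2 ± 1.996 against 13.3 ± 2.69 CPM (log2 fold change 0.20, SE 0.16, edgeR adjusted p = 0.99998). Leaving out 1 mouse at a time gave 0.22 (without WT mouse 2) to 0.59 (without WT mouse 4) for *Dll1* and 0.10 (without WT mouse 2) to 0.32 (without WT mouse 4) for *Hes1*. No gene had groups without overlap, against 1.54% of all genes. Without WT mice 3 and 4, which held epidermal transcripts, the log2 fold changes grew to 0.90 for *Dll1*, 0.77 for *Hey1*, 0.61 for *Heyl*, 0.61 for *Dll4* and 0.55 for *Jag1*, with adjusted p-values from edgeR of 0.114 to 0.183. The WT mice left were mice 1 and 2.

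Jrt;Sost-ko mice were compared with the same WT mice, so that the 2 comparisons are not independent. Here too 0 of 10 genes passed by edgeR, DESeq2 or limma-voom. Of 17155 genes, edgeR called 0.00583% and limma-voom 0.0117%, and DESeq2 called 0.0886% of the 15807 to which it gave an adjusted p. At an unadjusted p under 0.05 there were 0 of 10 by edgeR, against 3.89% of all genes, 0 by DESeq2, against 4.62%, and 2 by limma-voom, against 8.98%. The largest values were those of *Heyl* (16.9 ± 3.81 against 12.8 ± 4.37 CPM, log2 fold change 0.41, SE 0.26, edgeR adjusted p = 0.9996) and *Hey1* (15.9 ± 2.15 against 12.1 ± 5.00 CPM, log2 fold change 0.40, SE 0.27, edgeR adjusted p = 0.9996). Both had the higher mean in Jrt;Sost-ko mice, and the groups overlapped. The value of *Hey1* was 0.23 without WT mouse 2 and 0.68 without WT mouse 4, and that of *Heyl* 0.27 without WT mouse 1 and 0.64 without WT mouse 4. Osteoblast lineage markers summed to 2440 to 3407 CPM (median 3116) in Jrt;Sost-ko mice and 1500 to 3400 CPM (median 2053) in WT mice, and their part in the values was not tested. Of the 10 genes 9 were higher, where 49.1% of all genes were, with a median of 0.09 against 0.00. Here too the fold changes are not independent of each other, since 8 of the 10 genes varied together over the 12 mice. No gene had groups without overlap, against 2.4% of all genes. Without WT mice 3 and 4 the log2 fold change was 0.97 for *Hey1* and 0.84 for *Heyl* (edgeR adjusted p = 0.294 and 0.315). The WT mice left were again mice 1 and 2, the lowest of all 12 for both genes.

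The larger pattern lay between mice of one group. *Notch3*, the 3 ligands and the 4 targets moved together over the 12 mice, and *Notch1* and *Notch2* stood apart from them. WT mice 1 and 2 were among the 3 lowest of 12 mice for all 8 of these genes and Jrt;Sost-ko mouse 4 for 7 of the 8, while WT mouse 4 was among the 3 highest for all 8. Over the 28 pairs of these 8 genes, Pearson's r of log2 CPM was between 0.483 and 0.90, with a median of 0.806. Of the 28 pairs, 25 had an adjusted permutation p under 0.05 over the 45 pairs of all 10 genes. By Spearman's rho, or without the 2 mice farthest from the second gene's median, some pairs held and others did not. *Hey1* with *Heyl* had rho = 0.832 (adjusted permutation p = 0.0201) and r = 0.919 without those mice. *Dll1* with *Hey1* had rho = 0.203 (adjusted permutation p = 0.628) and r = -0.0014 without them. *Jag1* with *Dll1* had rho = 0.462 (adjusted permutation p = 0.224) and r = 0.62 without them. The split into 8 and 2 genes was made after these values were seen, so that counts within and between its parts are no test of it. The share of such pairs among all genes was not looked up. The counts therefore do not set the Notch genes apart from other genes. The 16 pairs of *Notch1* or *Notch2* with one of the 8 had r between -0.378 and 0.27, and 0 of the 16 had an adjusted p under 0.05. *Notch1* and *Notch2* had r = 0.661 with each other (permutation p = 0.018, adjusted 0.0338) and Spearman's rho = 0.545 (p = 0.0708), and r = 0.202 without the 2 mice farthest from the median, so that this relation rests on those mice.

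**Figure D3:**
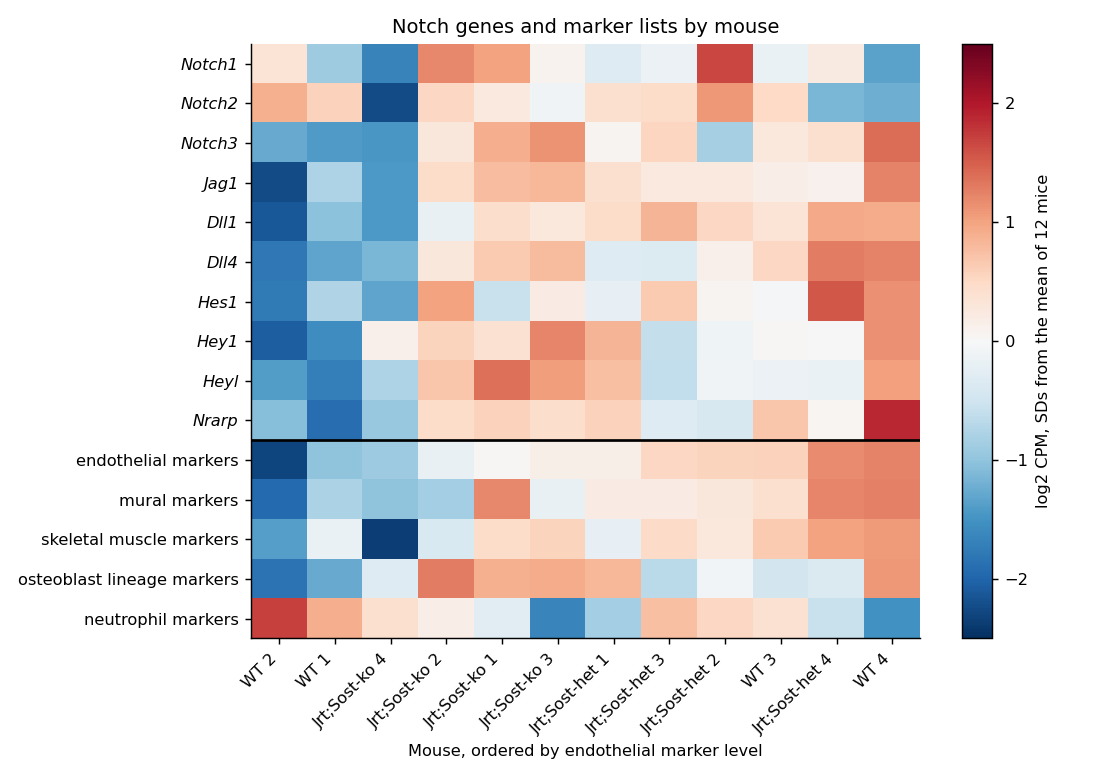
Log2 CPM of the 10 Notch genes and the mean log2 CPM of 5 marker lists (rows) in 12 mice (columns, ordered by endothelial markers), as SDs from the mean of each row (colour, red high and blue low). WT mice 2 and 1 and Jrt;Sost-ko mouse 4 at the left are low in *Notch3*, the ligands, the targets other than *Hey1* in Jrt;Sost-ko mouse 4, and the endothelial and mural markers.

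The same mice were low in markers of vessels, and some of them were at an end of the range for other tissues too. The 16 endothelial markers summed to 704 CPM in WT mouse 2, 756 CPM in Jrt;Sost-ko mouse 4 and 766 CPM in WT mouse 1, and to between 784 and 883 CPM in the other mice. The 10 mural cell markers summed to 301, 358 and 392 CPM in these mice and to between 436 and 720 CPM in the others. All genes of both lists had counts in every mouse. Skeletal muscle markers were lowest in Jrt;Sost-ko mouse 4 (35.8 CPM) and WT mouse 2 (248 CPM). Osteoblast lineage markers were lowest in WT mice 2 and 1 (1500 and 1832 CPM), and neutrophil markers were highest in them (29009 and 24687 CPM). Over 40 relations of the 10 Notch genes with 4 lists, the count with an adjusted permutation p under 0.05 by Pearson's r was 7 of 10 for endothelial, 6 of 10 for mural, 6 of 10 for osteoblast lineage and 5 of 10 for skeletal muscle markers. Relations of this size were common: among all other genes with a mean of at least 1 CPM, 26.7% had an r with endothelial markers at least as far from 0 as the weakest of the Notch genes counted, 23.8% with mural, 17.8% with osteoblast lineage and 11.6% with skeletal muscle markers. By Spearman's rho the counts were 3, 2, 3 and 4. With the 2 mice farthest from each list's median left out they were 1, 1, 3 and 0. Of the 24 relations 19 no longer passed with those 10 mice, in which the range of the markers is narrower by construction, and the r of these 19 had a median of 0.762 with 12 mice and 0.573 with 10. With group means removed the counts were 5, 2, 4 and 5.

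Among ligands, *Dll1* followed the endothelial markers most closely. Its r was 0.96 (permutation p = 1e-05, the smallest that 100000 permutations can give, adjusted 0.0003) and rho was 0.895 (p = 0.00019, adjusted 0.0054). It was 0.899 without WT mice 1 and 2 and 0.952 with group means removed. *Dll4* had r = 0.883 (permutation p = 0.00014, adjusted 0.00112) and rho = 0.734 (p = 0.00812, adjusted 0.0295) with the same list, and r = 0.76 without WT mice 1 and 2 (adjusted p = 0.0521). *Hes1* was alike, at r = 0.855 (permutation p = 0.00027, adjusted 0.0018) and rho = 0.755 (p = 0.0061, adjusted 0.0255), and 0.763 without those mice (adjusted p = 0.0521). *Jag1* had r = 0.85 (permutation p = 0.00097, adjusted 0.00404) but rho = 0.434 (p = 0.162), and r = 0.602 without WT mice 1 and 2 (adjusted p = 0.186), so that passing the test rests on those mice. With group means removed its r was 0.884 (adjusted permutation p = 0.0215). The same holds for *Notch3*, with r = 0.72 (permutation p = 0.0065, rho = 0.573, p = 0.0562) and 0.552 without those mice, and for *Hey1*, with r = 0.68 (permutation p = 0.0168, rho = 0.308, p = 0.332) and -0.00452 without them. With group means removed these were 0.793 (adjusted permutation p = 0.0347) and 0.822 (adjusted p = 0.0862). *Nrarp* passed with the endothelial list too, at r = 0.699 (adjusted permutation p = 0.024) and rho = 0.622 (adjusted p = 0.0867). Its r was 0.534 without WT mice 1 and 2 (adjusted permutation p = 0.215) and 0.789 with group means removed (adjusted p = 0.119). *Notch1* (r = 0.0705, permutation p = 0.828, rho = -0.049, p = 0.887) and *Notch2* (r = -0.215, permutation p = 0.499, rho = -0.315, p = 0.32) showed no relation to the endothelial list that passed the test. Most of the genes that passed varied with mural and skeletal muscle markers too. With these 2 lists r was 0.898 and 0.864 for *Dll1*, 0.842 and 0.807 for *Dll4*, and 0.79 and 0.803 for *Jag1*. It was 0.655 and 0.751 for *Hes1* and 0.716 and 0.762 for *Notch3*. All of these had an adjusted permutation p under 0.05. For *Hey1* r was 0.574 and 0.383 (adjusted permutation p = 0.07 and 0.268). For *Nrarp* it was 0.672 and 0.589 (adjusted permutation p = 0.0293 and 0.0695).

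The targets *Hey1* and *Heyl* had their highest r with the osteoblast lineage markers, which include *Bglap*, *Ibsp*, *Sp7* and *Dmp1*. *Heyl* had r = 0.939 (permutation p = 3e-05, adjusted 0.0003) and rho = 0.846 (p = 0.00081, adjusted 0.0081), and r = 0.959 without Jrt;Sost-ko mouse 2 and WT mouse 2. *Hey1* had r = 0.929 (permutation p = 3e-05, adjusted 0.0003) and rho = 0.888 (p = 0.00027, adjusted 0.0054), and r = 0.924 without those mice. *Nrarp* held as well, at r = 0.781 (permutation p = 0.00233, adjusted 0.00671) and 0.795 without them, with rho = 0.643 (p = 0.0274, adjusted 0.0782). With group means removed the r of the 3 targets was 0.922, 0.908 and 0.881. Of the ligands and receptors, *Jag1* followed this list too, at r = 0.816 (permutation p = 0.0005, adjusted 0.00286) and rho = 0.832 (p = 0.00126, adjusted 0.0101), with 0.731 without those mice (adjusted p = 0.0521) and 0.875 with group means removed. *Notch3* (r = 0.708, permutation p = 0.0116, adjusted 0.024, rho = 0.566, p = 0.0584, 0.681 without those mice) and *Dll4* (r = 0.687, permutation p = 0.0146, adjusted 0.0278, rho = 0.615, p = 0.0368, 0.573 without those mice) also passed. *Dll1* had r = 0.578 (permutation p = 0.0498, adjusted 0.07) and rho = 0.245 (p = 0.442) with this list. Whether the relations to the endothelial and the osteoblast lists differ from each other was not tested.

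**Figure D4:**
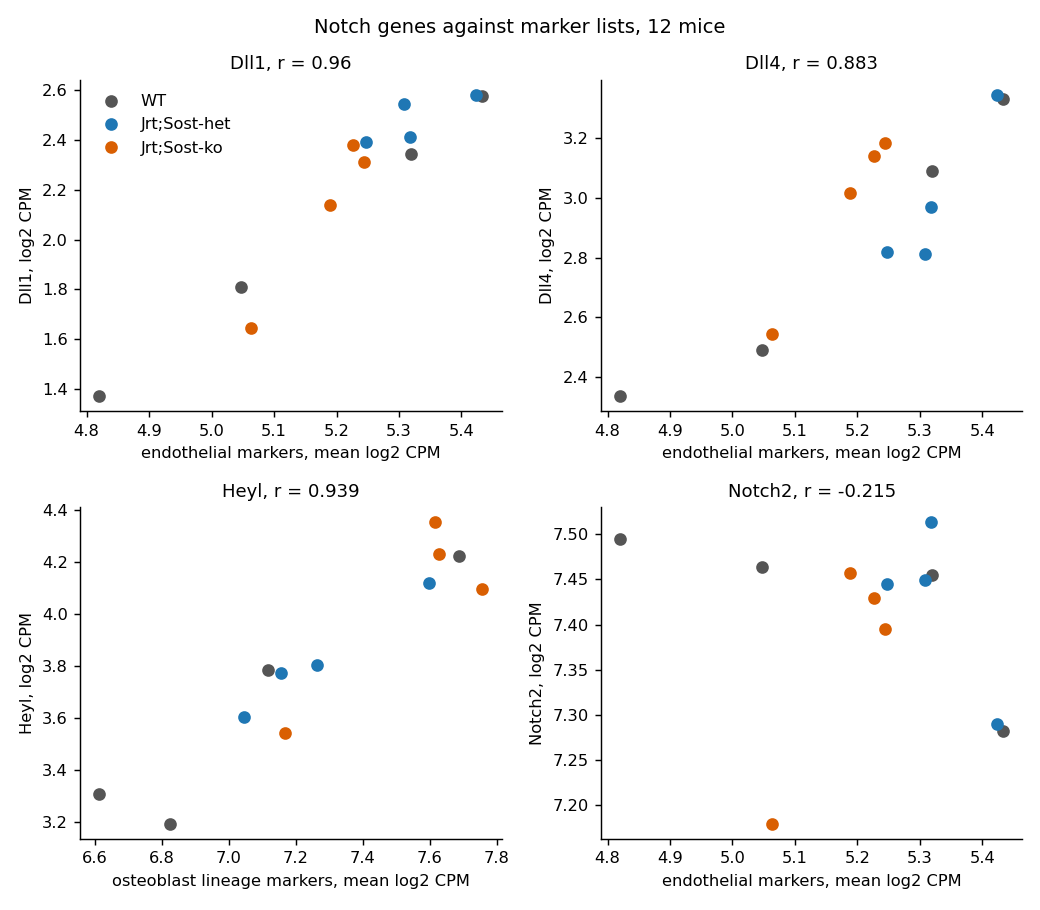
Log2 CPM of *Dll1*, *Dll4*, *Heyl* and *Notch2* (vertical axes) against the mean log2 CPM of a marker list (horizontal axes) in 12 mice, coloured by group, with Pearson's r above each panel. *Dll1* rises with endothelial markers (r = 0.96) and *Heyl* with osteoblast lineage markers (r = 0.939), and the r of *Notch2* with endothelial markers is -0.215.

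The lists were not independent of each other. Endothelial markers had r = 0.894 with mural and r = 0.805 with skeletal muscle markers over the 12 mice, and osteoblast lineage markers had r = -0.803 with neutrophil markers. Neutrophil markers, looked at after the data were seen, summed to between 15656 and 29009 CPM, and *Hey1* (r = -0.895, permutation p = 8e-05, adjusted 0.0008, rho = -0.916, p = 9e-05) and *Heyl* (r = -0.811, permutation p = 0.00155, adjusted 0.00775, rho = -0.818, p = 0.00172) were low where they were high. Without Jrt;Sost-ko mouse 3 and WT mouse 4 these were -0.866 and -0.766. The r was negative and passed the test for *Notch3* (-0.761), *Jag1* (-0.772), *Dll4* (-0.764) and *Nrarp* (-0.751) as well, each with an adjusted permutation p of 0.00787 and rho between -0.818 and -0.692 (p between 0.00182 and 0.0156), and for *Dll1* (-0.635, adjusted 0.038, rho = -0.455, p = 0.141), and 29.0% of all other genes had an r at least as far from 0 as the weakest of these 7. Neither *Notch1* (r = 0.157, permutation p = 0.624, rho = 0.112, p = 0.735) nor *Notch2* (r = 0.414, permutation p = 0.182, rho = 0.657, p = 0.0242) had a negative value. The part of each tissue in the levels of the Notch genes was not tested.

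The genes most like each Notch gene over the 12 mice were looked up among all genes with a mean of at least 1 CPM, as a description without a test. For *Jag1* the first was *Pdgfrb* (r = 0.983), a gene of the mural list, before *Kremen1* and *Phldb1*. With the whole mural list the r of *Jag1* was 0.79, below its r with the endothelial (0.85) and osteoblast lineage (0.816) lists. For *Dll4* they were *Rhoq* (r = 0.986), *Msrb3* and *Ptprb* (r = 0.972), the last a phosphatase of endothelial cells, and for *Dll1* *Arhgap29* (r = 0.975), *Sorbs3* and *Mstn*. *Notch3* was most like *Tesk1* (r = 0.971), *Tbc1d4* and *Sh3bp4*. The targets had other neighbours: *Kazald1* (r = 0.982), *P4ha2* (r = 0.982), a collagen prolyl hydroxylase, and *Ppfia2* for *Hey1*, *Vcan* (r = 0.976), the matrix proteoglycan versican, *Sh3pxd2b* and *Slco3a1* for *Heyl*, *Abhd8* (r = 0.945), *Gpc1* and *Mxra7* for *Nrarp*, and *Gja4* (r = 0.946), a connexin of arterial endothelium, *Mpdz* and *Osbpl10* for *Hes1*. *Notch1* (*Ncoa3*, r = 0.886, *Lpgat1* and *Rbm47*) and *Notch2* (*Fam222b*, r = 0.859, *Dnajc5* and *Abr*) had no gene as close.

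The rest of the pathway was read from 46 further genes, from ligands to the enzymes that cut, glycosylate and degrade the receptors. Of these, 44 were tested in Jrt;Sost-ko relative to Jrt;Sost-het mice, 43 in Jrt;Sost-het against WT and 44 in Jrt;Sost-ko against WT. None passed an adjusted p under 0.05 by edgeR, DESeq2 or limma-voom in any of the 3. At an unadjusted p under 0.05 the counts by edgeR were 3 of 44, 0 of 43 and 3 of 44, by DESeq2 2, 0 and 3, and by limma-voom 4, 0 and 7. The shares of all genes were 5.02%, 2.14% and 3.89% by edgeR, 5.41%, 2.4% and 4.62% by DESeq2, and 8.86%, 4.59% and 8.98% by limma-voom. The medians of the log2 fold change were 0.01, 0.00 and 0.00, against 0.00 over all genes in each comparison.

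Of the remaining receptors, ligands and targets, *Notch4*, the endothelial receptor, was at 7.92 to 17.3 CPM over the 12 mice and *Jag2* at 4.68 to 14.1 CPM. *Hey2* was at 0.581 to 2.35 CPM and *Hes5* at 0.286 to 0.915 CPM. *Dlk1* reached at most 0.91 CPM, *Dlk2* 0.34 CPM and *Dll3* 0.125 CPM. In Jrt;Sost-ko relative to Jrt;Sost-het mice the log2 fold change was -0.16 for *Notch4* (SE 0.21), -0.31 for *Jag2* (SE 0.19) and -0.38 for *Hey2* (SE 0.25), with edgeR adjusted p-values of 0.901 to 0.918. None of these differed beyond the spread between mice. *Rbpj*, the DNA-binding partner of the receptors, was at 54.4 to 65.5 CPM.

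*Dtx1*, a ubiquitin ligase of the Deltex family that is itself a Notch target, had the smallest unadjusted p of the 46 in the comparison of Jrt;Sost-ko with Jrt;Sost-het mice. It was at 8.07, 7.17, 7.49 and 6.82 CPM in Jrt;Sost-ko mice, at 5.78, 5.63, 5.83 and 5.38 CPM in Jrt;Sost-het mice, and at 5.61, 4.68, 6.37 and 5.59 CPM in WT mice. All 4 Jrt;Sost-ko mice were above all 8 others, and the share of all genes with this order was not looked up. Groups did not overlap for 3.2% of all genes against Jrt;Sost-het and for 2.4% against WT mice. Against Jrt;Sost-het mice the log2 fold change of *Dtx1* was 0.38 (SE 0.10), with an edgeR p of 0.00452 and an adjusted p of 0.901, and the exact permutation p was 0.0286. Against WT mice it was 0.41 (SE 0.13, edgeR p = 0.0107, adjusted p = 0.9996, exact permutation p = 0.0286). Both exact p are the smallest that 70 arrangements of 4 against 4 mice allow. They share the same Jrt;Sost-ko mice and have no adjusted value here. The difference did not pass the threshold over all genes in either comparison, by any of the 3 tools. Leaving out each mouse in turn gave log2 fold changes between 0.34 and 0.42 against Jrt;Sost-het mice.

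**Figure D5:**
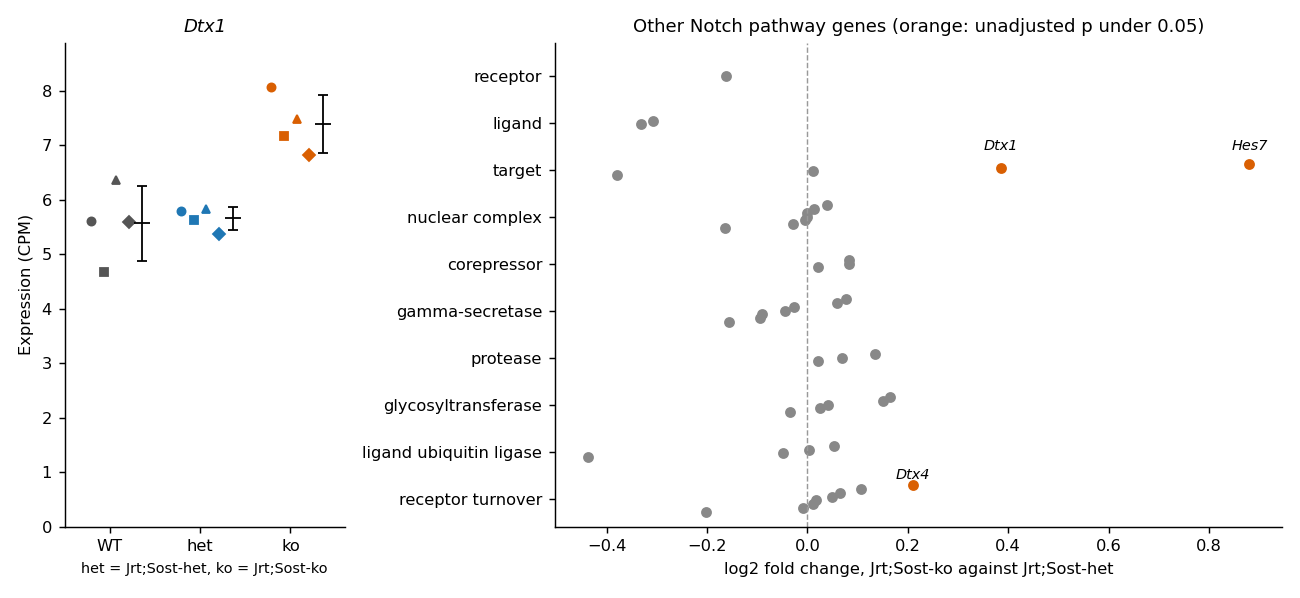
Left, *Dtx1* in CPM in WT, Jrt;Sost-het (het) and Jrt;Sost-ko (ko) mice, with points for single mice and bars for the mean ± SD of 4 mice. Right, log2 fold changes of Jrt;Sost-ko relative to Jrt;Sost-het mice (horizontal axis) of the 44 other Notch pathway genes tested, by role, with the 3 genes at an unadjusted edgeR p under 0.05 named and in orange; none passed an adjusted p under 0.05.

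The next genes by unadjusted p in this comparison were *Dtx4*, a relative of *Dtx1*, *Hes7*, *Ncstn*, a subunit of the gamma-secretase that cuts the receptor, and *Lfng*, which adds sugars to it. *Dtx4* was at 39.9 to 44.2 CPM in Jrt;Sost-ko and 33.4 to 41.6 CPM in Jrt;Sost-het mice (log2 fold change 0.21, SE 0.08, edgeR adjusted p = 0.901, exact permutation p = 0.0571). *Hes7* rested on 4 to 15 counts per mouse (log2 fold change 0.88, SE 0.36, edgeR adjusted p = 0.901, exact permutation p = 0.0571). *Ncstn* had a log2 fold change of -0.09 without overlap of the groups and *Lfng* one of 0.15, both with an edgeR adjusted p of 0.901. Groups did not overlap for 2 of the 44 genes, *Dtx1* and *Ncstn*, which is 4.55% beside 3.2% of all genes.

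Against WT mice, *Dtx2*, *Poglut1*, *Dtx4* and *Aph1c* followed *Dtx1* in Jrt;Sost-ko mice. *Dtx2*, also of the Deltex family, was at 19.3 to 20.1 CPM in Jrt;Sost-ko and 16.8 to 18.4 CPM in WT mice (log2 fold change 0.18, SE 0.07, edgeR adjusted p = 0.9996, exact permutation p = 0.0286). *Poglut1*, which adds glucose to the receptors, was at 25.0 to 29.8 against 21.9 to 24.4 CPM (log2 fold change 0.19, SE 0.08, edgeR adjusted p = 0.9996, exact permutation p = 0.0286). Groups did not overlap for these 2 and *Dtx1*, 3 of the 44 genes (6.82%) beside 2.4% of all genes. In Jrt;Sost-het against WT mice the 5 smallest unadjusted p-values, 0.139 to 0.21 by edgeR, were those of *Mib2*, *Lfng*, *Pofut1*, *Ncstn* and *Rfng*, with log2 fold changes between -0.15 and 0.12 and no groups without overlap, beside 1.54% of all genes.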

How the data were processed

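RNA of 12 tibia shafts was sequenced as paired-end reads. Alignment by the authors was to GRCm38, with STAR within GenPipes, and they deposited raw counts per Ensembl gene, without normalization. The counting tool and its strand setting are not given in the sources used here. The 9 deposited tables of the authors' own comparisons, with fold changes, p-values and 96 columns of counts per mouse, and the 12 count tables of single mice were not used.

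Every comparison of 2 groups used the 8 mice concerned, in edgeR 4.0.16 in R 4.3.3 (filterByExpr, TMM, glmQLFit, glmQLFTest), with Benjamini–Hochberg adjustment over all genes tested and a threshold of 0.05. DESeq2 1.42.0 and limma-voom 3.58.1 with sample quality weights were alternatives, with other scalings, filters, covariates and samples. CPM and log2 CPM (prior count 2) used TMM factors over 12 mice. For single genes the permutation test was exact and two-sided, with 70 arrangements, and correlations by 100000 permutations. Scripts were tested on simulated data.

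The genes named are the 10, of the 46 others those with an adjusted p under 0.05, the 5 smallest unadjusted p per comparison and the receptor, ligands and targets, and for each of the 10 the 3 genes with the highest r. The 10 genes, the gene lists and the tests were chosen with earlier results of these data known. The p-values measure the spread between mice. Positions are from GENCODE M21, which held 46488 of the 47069 identifiers.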

Additional observations from a re-analysis of the deposited data

Results flagged for a closer look

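*Nrarp* in Jrt;Sost-ko mice had 1 mouse far from the others. Mouse 4 was at 9.26 CPM and the other 3 between 11.1 and 11.3 CPM, so that the gap to the nearest mouse took 0.891 of the range, above Dixon's critical value at the 95% level for 4 samples. Of 30 groups of 4 mice looked at, chance would give 1.5 such cases. The same mouse had the lowest summed skeletal muscle markers of all 12 mice, at 35.8 CPM, and 756 CPM of endothelial markers, and their part in the value was not tested.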

How the results depend on the processing

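No Notch gene was called in any comparison under any of the alternatives, whose smallest adjusted p was 0.114, that of *Dll1* in Jrt;Sost-het against WT mice without the 2 WT mice with epidermal transcripts (this alternative, the neutrophil list and the pairs of Notch genes were chosen after seeing the data). No paired analysis was possible because the titles carry a different animal number for every mouse, so that the groups share none, and the numbers 1 to 4 used here follow the order of the labels. Of 530 fold changes of the 10 genes under an alternative, 57 changed sign, in 19 of the 30 gene by comparison values, and the cause was not tested.

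For Jrt;Sost-ko relative to Jrt;Sost-het mice the log2 fold change with endothelial markers as a covariate was 0.10 for *Notch1*, 0.0285 for *Dll1*, 0.48 for *Dll4* and 0.15 for *Hes1*, with muscle markers as a covariate 0.0386 for *Notch1* and 0.18 for *Dll4*, and with limma-voom 0.0176 for *Notch1* and 0.0862 for *Dll4*. That of *Jag1* was -0.000969 with DESeq2's size factors, -0.000805 with DESeq2, -0.00775 with at least 10 counts in every mouse and -0.00419 with all 12 mice in a single fit. For Jrt;Sost-het against WT mice it was, with the endothelial covariate, -0.10 for *Notch3*, -0.052 for *Jag1*, -0.13 for *Dll4*, -0.0318 for *Hey1* and -0.0195 for *Heyl*, with the muscle covariate -0.00906 for *Notch3*, with limma-voom -0.00206 for *Notch2* and 0.0454 for *Nrarp*, and without the 2 WT mice -0.0358 for *Notch2* and 0.29 for *Nrarp*.

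Leaving out each mouse in turn moved all 30 values by over 1.5 times, or changed their sign, for at least 1 mouse. The signs changed as follows. For Jrt;Sost-ko relative to Jrt;Sost-het mice the values ran from -0.0811 to 0.13 for *Dll4*, from -0.0676 to 0.14 for *Jag1*, from -0.0499 to 0.0323 for *Notch1* and from -0.0158 to 0.16 for *Notch3*. For Jrt;Sost-het against WT mice they ran from -0.00623 to 0.33 for *Dll4*, from -0.00313 to 0.35 for *Jag1*, from -0.0441 to 0.0445 for *Notch2*, from -0.034 to 0.19 for *Notch3* and from -0.11 to 0.13 for *Nrarp*. For Jrt;Sost-ko against WT mice they ran from -0.13 to 0.25 for *Dll1*, from -0.0146 to 0.32 for *Dll4*, from -0.0583 to 0.18 for *Hes1*, from -0.00496 to 0.35 for *Jag1*, from -0.10 to 0.00561 for *Notch2* and from -0.0811 to 0.16 for *Nrarp*.

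The counts of relations with marker lists fell without the 2 mice farthest from the median to 1 of 10 (endothelial), 1 (mural), 3 (osteoblast lineage) and 0 (skeletal muscle), in fits with 10 mice, and with group means removed to 2 for mural markers, and the r of *Hey1* with endothelial markers was -0.00452 without those 2 mice. *Hes7* was not tested with at least 10 counts in every mouse. With 4 mice a group, folds up to 2.03 lay within the 95% intervals of the Notch genes, and *Dll1* rested on as few as 74 counts. Over all genes, edgeR called 1, DESeq2 15 and limma-voom 0 between the 2 groups with the *Col1a1* mutation, and 1, 14 and 2 between Jrt;Sost-ko and WT mice.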
